A study of Mus musculus with 6 samples.

Results

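The heme and iron handling genes, 10 in number, were examined in resting macrophages with a knockout genotype for the retinoid X receptors alpha and beta. They were taken by gene symbol from the deposited count table, which holds 45193 genes, and all 10 had enough reads to be tested. The genes were the transferrin receptor gene Tfrc, the ferritin genes Fth1 and Ftl1, the ferritin turnover gene Ncoa4, the ferroxidase gene Cp, the genes of the iron regulatory proteins Aco1 and Ireb2, and the heme breakdown genes Hmox1, Blvra and Blvrb. Of these, 1 was higher and 3 were lower in the knockout, and 6 did not pass the test, where 9.77% of all tested genes were higher and 9.61% lower (19.4% in all).

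Libraries of polyA RNA came from 3 knockout and 3 wild-type (WT) cultures of macrophages that had been grown for 6 days out of mouse bone marrow, with L929 cell supernatant as the source of the growth factor CSF-1. Knockout cells had the genotype RXRafl/flLysMCre RXRb-/-, that is, loxP-flanked alleles of Rxra, Cre recombinase under the control of the lysozyme M gene, and inactive Rxrb alleles. WT cells carried none of these changes by their label, and both groups are labelled C57BL/6J. Unstimulated cells were used throughout: all 6 cultures sat in serum-free medium and received only the vehicle DMSO, for 3 hours. Cre from the lysozyme M locus acts in myeloid cells, and the share of cells that had lost Rxra is not given in the sources used here, nor are the age of the mice and which animals each culture came from. The p-values therefore measure the spread between these libraries, which may be technical in part.

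Macrophages of the spleen, liver and marrow take up aged red cells, break heme down and return its iron to the blood. Heme oxygenase opens the heme ring and releases iron, which is stored in ferritin or leaves through ferroportin, the only known iron exporter of mammalian cells. Iron regulatory proteins adjust this traffic after transcription. When iron is scarce they bind hairpins called iron-responsive elements, which blocks translation when the hairpin lies in a 5′ untranslated region (UTR), as in ferritin, and protects the mRNA from decay when it lies in the 3′ UTR of Tfrc.

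The hairpin sequences are shown because the transcripts that carry them include both the largest change and the most abundant members. Transcripts were searched on their sense strand for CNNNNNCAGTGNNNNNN, with overlapping matches allowed. The 5 bases after the C had to pair with the last 5 (A with T, G with C or G with T). Sequences are from the GENCODE M21 transcripts of GRCm38, 5′ to 3′, with the loop in capitals:
Fth1 5′ UTR, chr19:9982731-9982760, plus strand: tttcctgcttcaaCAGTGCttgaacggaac
Ftl1 5′ UTR, chr7:45459779-45459808, minus strand: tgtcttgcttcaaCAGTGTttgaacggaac
Slc40a1 5′ UTR, chr1:45925465-45925494, minus strand: ccaacttcagctaCAGTGTtagctaagttt
Tfrc 3′ UTR, chr16:32631218-32631247, plus strand: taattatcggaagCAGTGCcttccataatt
Tfrc 3′ UTR, chr16:32631597-32631626, plus strand: acattatcgggagCAGTGTcttccataatg
Tfrc 3′ UTR, chr16:32631662-32631691, plus strand: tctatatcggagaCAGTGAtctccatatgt
Tfrc 3′ UTR, chr16:32631709-32631738, plus strand: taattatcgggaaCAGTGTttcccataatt

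No other gene in the searched part of the heme and iron lists held the pattern in an unspliced window of 30 bases. Genes on the chromosome of Fech and Ftmt, and the transferrin gene Trf, were left out of this listing, so a match there would not be shown. An element whose loop or pairing departs from the pattern would be missed, so other listed genes may still carry one. Over all protein-coding genes with an annotated UTR long enough to search, 0.151% held it in the 5′ UTR and 0.615% in the 3′ UTR. A match is a description of the letters and was not tested for binding. Of the 25 tested genes with the pattern in the 5′ UTR, 3 were higher, 3 were lower and 19 did not pass (24%), with a median log2 fold change of 0.03. Of the 89 with it in the 3′ UTR, 14 were higher, 13 were lower and 62 did not pass (30.3%), with a median of 0.04. Over all tested genes 19.4% passed, and neither share was tested against that.

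Total counts ranged from 17250051 to 25091019 in the knockout and from 7880320 to 14957253 in WT. Rxrb was measured at 8.14, 7.98 and 11.7 CPM (counts per 1000000 counted reads, scaled by the TMM method of edgeR) in knockout replicates 1, 2 and 3, against 64.7, 66.9 and 68.4 CPM in WT replicates 1, 2 and 3. Rxra stood at 109 ± 4.83 CPM in the knockout and 104 ± 6.7 CPM in WT (SD, n = 3 each), which says nothing of the part between the loxP sites, since reads were counted over the whole gene. Lyz2, the lysozyme gene at the Cre locus, was at 28.4 CPM in the knockout and 15260 CPM in WT. Xist, which is transcribed from the inactive X chromosome of female cells, had between 209 and 267 CPM in the knockout libraries and 0 reads in each WT library, while the Y-linked gene Ddx3y had between 49.7 and 55.4 CPM in the knockout and between 101 and 112 CPM in WT. The RXR genotype, the loss of Lyz2, Cre, depth and the sex of the cells differ with the genotype together and cannot be told apart.

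Macrophage markers were present in every library. Of the 8 listed markers 3 were higher and 1 was lower, where 9.77% and 9.61% of all tested genes were. The 8 summed to between 10300 and 12300 CPM of all reads in the knockout and between 10000 and 12000 CPM in WT. Defining erythroid genes were at or near 0: of 11 markers, 5 had no read in any library, the hemoglobin genes Hba-a1, Hbb-bs and Hbb-bt among them, and the sum of all 11 lay between 0.438 and 1.08 CPM in the knockout and between 1.78 and 2.54 CPM in WT. Most reads of the WT sums came from Epor alone, with 16, 11 and 36 reads in WT replicates 1, 2 and 3. The other 10 markers each had fewer than 10 reads in every library. Lymphocyte markers summed to at most 0.986 CPM in the knockout and at most 0.207 CPM in WT. In bulk RNA, fewer cells of a type and less RNA per cell cannot be told apart.

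Of the 10 members, 4 passed an adjusted p of 0.05 in edgeR's quasi-likelihood test, with p-values adjusted by the Benjamini-Hochberg method over all 12011 genes tested. Among all tested genes the share called was 19.4%. The median log2 fold change of the members was -0.12 and that of all tested genes -0.005. The knockout and WT values did not overlap in 6 of the 10 members, where 36.9% of all tested genes showed this. Under other settings the share of all tested genes called was 9.03% with no filter on low counts and 17.7% with DESeq2. It was 11.4%, 13.4% and 18.2% without knockout replicate 1, 2 or 3, and 10.4%, 15% and 21.1% without WT replicate 1, 2 or 3. Without knockout replicate 1 only 1 member, Tfrc, passed, and 2 passed without knockout replicate 2, without WT replicate 1 or without WT replicate 2. The 6 members with no overlap were Tfrc, Ncoa4, Aco1, Ireb2, Hmox1 and Blvra.

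**Figure D1:**
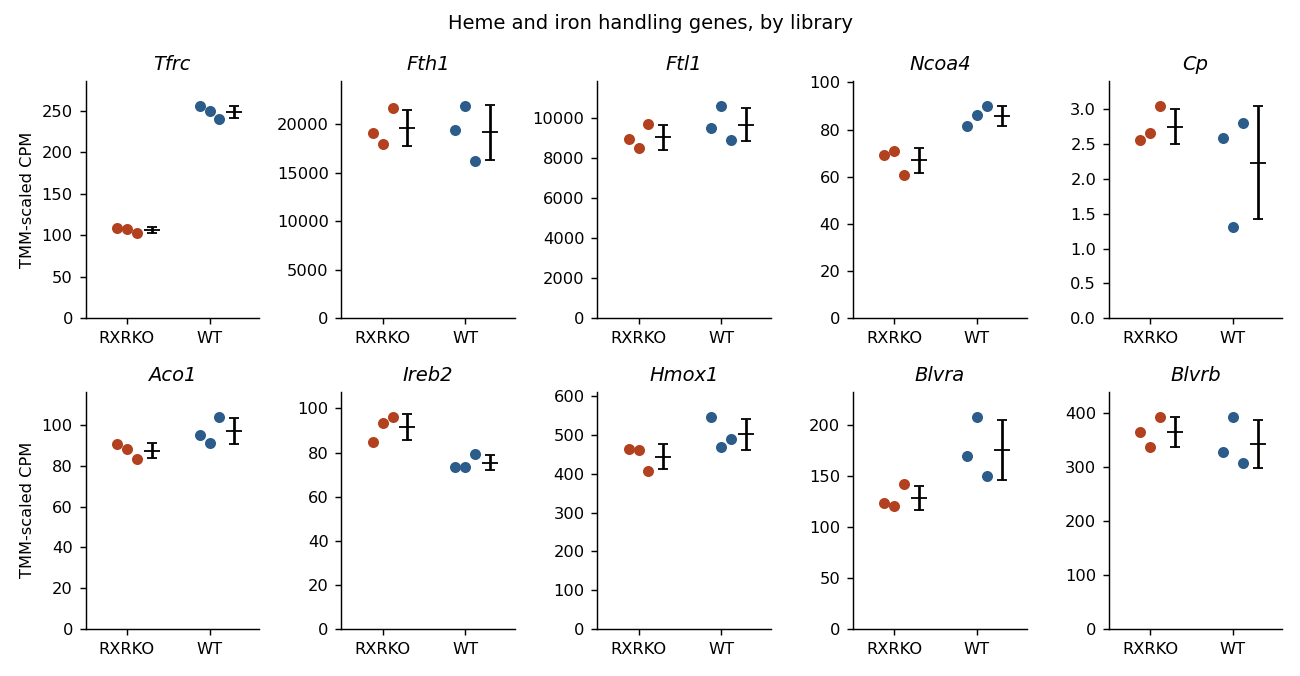
Level of each of the 10 heme and iron genes in TMM-scaled CPM (vertical axis, starting at 0), with knockout (RXRKO) libraries left of WT libraries; points are replicates 1 to 3 from left to right and the black bar is the mean with its SD. Tfrc is the gene whose groups lie farthest apart, between 102 and 108 CPM in the knockout and between 240 and 255 CPM in WT, while the Fth1, Ftl1, Blvrb and Cp groups overlap.

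The transcript of the transferrin receptor showed the largest change among the members. Tfrc (ENSMUSG00000022797, chromosome 16, 32608920 to 32632794, plus strand, GRCm38) encodes the receptor that carries transferrin-bound iron into the cell. It had 108, 108 and 102 CPM in knockout replicates 1, 2 and 3, against 255, 250 and 240 CPM in WT replicates 1, 2 and 3. All knockout values lay below all WT values, with little spread inside either group. The mean was 106 ± 3.35 CPM in the knockout and 248 ± 7.61 CPM in WT (SD, n = 3 each; log2 fold change -1.23, SE 0.076, edgeR adjusted p = 3.59e-07). Each SE printed here was derived from the F statistic and the fold change, so it restates the test. The Tfrc level therefore fell by 57.3%. With each library left out in turn the log2 fold change stayed between -1.26 and -1.20, and it passed the threshold each time.

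Cells that divide need much iron, and transcripts of the cell cycle fell beside Tfrc. Of 12 cell cycle markers all 12 were lower in the knockout (median log2 fold change -0.78), where 9.61% of all tested genes were lower. The list was chosen with earlier results of these data known, so this count is a description and no test. The summed level of the 12 markers lay between 691 and 806 CPM of all reads in the knockout and between 1180 and 1300 CPM in WT. The most abundant of them was Top2a, a topoisomerase gene of dividing cells, at 212 ± 5.9 CPM in the knockout and 318 ± 7.67 CPM in WT (log2 fold change -0.58, edgeR adjusted p = 1.48e-04). The part of these differences in the Tfrc result was not tested.

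More of the other iron entry genes were higher than lower. Of the 8 other genes on that list, 4 were higher, 1 was lower and 3 did not pass. Among all tested genes 9.77% were higher and 9.61% lower. Slc39a14, which encodes a zinc transporter that also carries iron not bound to transferrin, had 33.7, 32.5 and 32.3 CPM in knockout replicates 1, 2 and 3, against 24.8, 23.2 and 24.1 CPM in WT replicates 1, 2 and 3 (log2 fold change 0.45, SE 0.097, edgeR adjusted p = 0.00589). Its relative Slc39a8 averaged 20.9 ± 2.04 CPM in the knockout and 14.7 ± 1.77 CPM in WT (0.51, SE 0.128, edgeR adjusted p = 0.0141). That call was lost without knockout replicate 1 or 2. Lrp1, a large endocytic receptor that takes up heme bound to hemopexin, averaged 3429 ± 75.3 CPM in the knockout and 2462 ± 398 CPM in WT (0.48, SE 0.106, edgeR adjusted p = 0.00693). Cd163, the receptor for hemoglobin bound to haptoglobin, which was chosen after its values were seen, had 4.89 ± 1.38 CPM in the knockout and 2.92 ± 0.273 CPM in WT (0.77, SE 0.246, edgeR adjusted p = 0.0447). These are 63, 161 and 85 reads in knockout replicates 1, 2 and 3, against 31, 22 and 41 in WT replicates 1, 2 and 3. The Cd163 call was not examined under other settings. Trf, which encodes transferrin, fell to 6.56 ± 0.285 CPM in the knockout, against 12.1 ± 2.85 CPM in WT (-0.88, SE 0.172, edgeR adjusted p = 0.00329).

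The transcript of the iron exporter rose. Slc40a1 encodes ferroportin and, as the sequences show, holds the hairpin pattern in its 5′ UTR. It had 478, 499 and 450 CPM in knockout replicates 1, 2 and 3, against 257, 236 and 264 CPM in WT replicates 1, 2 and 3. Every knockout value lay above every WT value. The mean was 476 ± 24.4 CPM in the knockout and 252 ± 14.8 CPM in WT (log2 fold change 0.91, SE 0.081, edgeR adjusted p = 7.82e-06). The fold change stayed between 0.87 and 0.95 with each library left out. Ferroportin is not one of the 10 members and is named by the rule for the rest of the pathway.

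Cp (ENSMUSG00000003617, chromosome 3, 19957054 to 20009145, plus strand) encodes ceruloplasmin, a copper ferroxidase made chiefly by the liver that oxidises iron as it leaves cells. It was the least abundant member, with 44, 67 and 56 reads in knockout replicates 1, 2 and 3, against 25, 10 and 43 reads in WT replicates 1, 2 and 3. These are 2.75 ± 0.255 CPM in the knockout and 2.24 ± 0.814 CPM in WT, and the groups overlapped. The log2 fold change was 0.24 (SE 0.279, edgeR adjusted p = 0.595), and its 95% interval, from -0.36 to 0.84, includes both a fall and a rise. Cp shares 108 exon bases with Hps3 on the other strand, and the sources used here do not say whether counting used strand, so part of these few reads may belong to Hps3. The other genes of iron export, Heph and Hamp, had at most 4 reads in any library and were not tested.

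**Figure D2:**
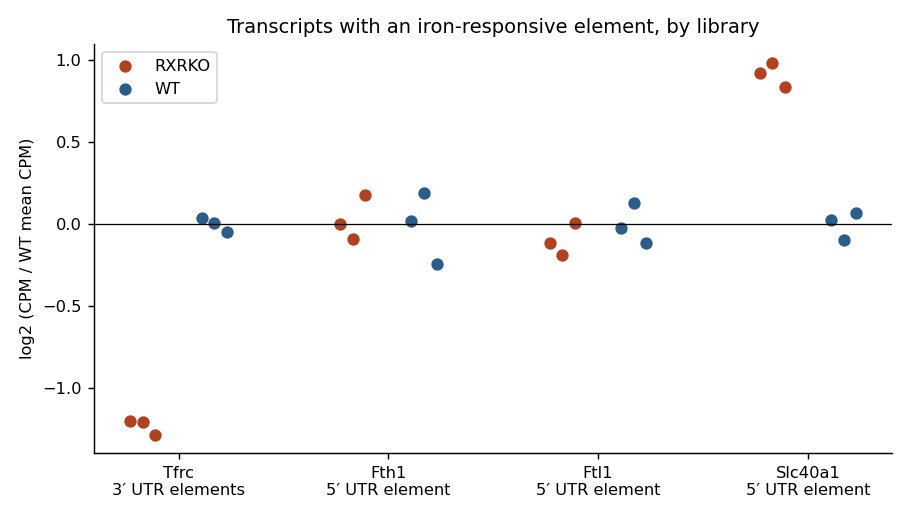
Level of the 4 transcripts of the heme and iron lists whose hairpin sequences are printed here. Values are the log2 of each library's CPM over the WT mean (vertical axis, 0 marks the WT mean), with knockout (RXRKO) libraries left of WT libraries. Tfrc lies below and Slc40a1 above WT in all 3 knockout libraries, whereas Fth1 and Ftl1 values of both genotypes are mixed around 0.

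Ferritin mRNA was not distinguishable between the genotypes. Fth1 (ENSMUSG00000024661, chromosome 19, 9980598 to 9985098, plus strand) encodes the ferritin heavy chain, which oxidises iron for storage. It had 19150, 18010 and 21660 CPM in knockout replicates 1, 2 and 3, against 19460, 21860 and 16210 CPM in WT replicates 1, 2 and 3. The WT range enclosed the knockout range. The log2 fold change was 0.03 (SE 0.11, 95% interval -0.21 to 0.27, edgeR adjusted p = 0.875), and its sign turned when WT replicate 3 or knockout replicate 3 was left out (-0.08 and -0.04). Ftl1 (ENSMUSG00000050708, chromosome 7, 45457944 to 45459884, minus strand) encodes the light chain, which helps the mineral core to form. Its level was 8915, 8475 and 9701 CPM in knockout replicates 1, 2 and 3, against 9506, 10560 and 8911 CPM in WT replicates 1, 2 and 3. These groups overlapped too (log2 fold change -0.10, SE 0.088, 95% interval -0.29 to 0.09, edgeR adjusted p = 0.486).

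Together the 2 ferritin genes took 2.8%, 2.66% and 3.12% of all reads in knockout replicates 1, 2 and 3, against 2.9%, 3.15% and 2.57% in WT replicates 1, 2 and 3. Fth1 was at rank 1 or 2 of all genes by read count in each of the 6 libraries, and Ftl1 lay between ranks 7 and 9. These ranks were not scaled for gene length. Fth1 had between 2.12 and 2.23 reads for each Ftl1 read in the knockout and between 1.82 and 2.07 in WT. Annotated ferritin copies and pseudogenes (Fth-ps2, Ftl1-ps1, Ftl1-ps2 and Ftl2-ps) can share reads with their parents. They held between 120 and 157 reads in a knockout library and between 43 and 73 in a WT library, at most 0.0272% of the ferritin reads, and adding them left both ferritin genes short of the threshold. Ftl1 also shares 355 exon bases with Gm10252 on the other strand, so a part of its reads is uncertain.

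The gene of ferritin turnover fell by a small amount. Ncoa4 (ENSMUSG00000056234, chromosome 14, 32159865 to 32179855, plus strand) encodes the receptor that delivers ferritin to lysosomes so that its iron is released. It had 69, 70.7 and 60.9 CPM in knockout replicates 1, 2 and 3, against 81.3, 86.1 and 89.8 CPM in WT replicates 1, 2 and 3. All knockout values lay below all WT values. The mean was 66.9 ± 5.24 CPM in the knockout and 85.7 ± 4.23 CPM in WT (log2 fold change -0.36, SE 0.09, edgeR adjusted p = 0.0139). The call was lost without knockout replicate 1, by a narrow margin (edgeR adjusted p = 0.0504). The iron chaperone gene Pcbp1, which loads iron into ferritin, did not pass (179 ± 21.8 CPM in the knockout and 214 ± 37.1 CPM in WT, log2 fold change -0.26, edgeR adjusted p = 0.174), but it did without WT replicate 2 (adjusted p = 0.0257). Of the 2 other tested genes on the storage list, Pcbp1 and Pcbp2, neither passed.

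Of the iron regulatory protein genes, Ireb2 rose by a small amount and Aco1 did not pass the test. Ireb2 (ENSMUSG00000032293, chromosome 9, 54863789 to 54912530, plus strand) encodes IRP2, which is degraded when iron is plentiful. It had 84.9, 93.5 and 96 CPM in knockout replicates 1, 2 and 3, against 73.4, 73.4 and 79.5 CPM in WT replicates 1, 2 and 3. The groups did not overlap, and the mean was 91.5 ± 5.83 CPM in the knockout and 75.4 ± 3.55 CPM in WT. The log2 fold change was 0.28 (SE 0.086, edgeR adjusted p = 0.0397). This call is fragile: with 1 library left out it passed only without WT replicate 3, and the adjusted p reached 0.14 in the other fits. It was also lost with no filter on low counts.

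Aco1 (ENSMUSG00000028405, chromosome 4, 40143081 to 40198338, plus strand) encodes IRP1, which is an aconitase while it holds an iron-sulfur cluster and binds RNA without it. Its level was 90.4, 88.2 and 83.5 CPM in knockout replicates 1, 2 and 3, against 95.2, 91.3 and 104 CPM in WT replicates 1, 2 and 3. Every knockout value was below every WT value, but the difference did not pass the test (log2 fold change -0.15, SE 0.084, 95% interval -0.33 to 0.03, edgeR adjusted p = 0.244). Fbxl5, the ubiquitin ligase subunit that marks IRP2 for degradation, averaged 61.4 ± 2.33 CPM in the knockout and 61.1 ± 0.937 CPM in WT (0.01, edgeR adjusted p = 0.959).

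Of the heme breakdown members, Blvra fell and Hmox1 and Blvrb did not pass the test. Hmox1 (ENSMUSG00000005413, chromosome 8, 75093621 to 75100589, plus strand) encodes the inducible heme oxygenase. It had 464, 461 and 406 CPM in knockout replicates 1, 2 and 3, against 546, 470 and 489 CPM in WT replicates 1, 2 and 3. The groups did not overlap, yet the nearest values, 464 CPM in the knockout and 470 CPM in WT, lay close together. The log2 fold change was -0.18 (SE 0.087, 95% interval -0.37 to 0.01, edgeR adjusted p = 0.183), and it did not pass in any alternative fit.

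Biliverdin, the product of heme oxygenase, is reduced to bilirubin by biliverdin reductases, and the 2 genes differed in their result. Blvra (ENSMUSG00000001999, chromosome 2, 127070665 to 127097084, plus strand) encodes the main adult enzyme. It had 123, 121 and 142 CPM in knockout replicates 1, 2 and 3, against 169, 208 and 150 CPM in WT replicates 1, 2 and 3. All knockout values lay below all WT values, and WT replicate 2 was the highest. The mean was 129 ± 11.9 CPM in the knockout and 176 ± 29.6 CPM in WT (log2 fold change -0.45, SE 0.115, edgeR adjusted p = 0.0162). Leaving out knockout replicate 1 or 2, or WT replicate 1 or 2, ended the call, with adjusted p-values up to 0.075. Without WT replicate 2 the log2 fold change was -0.31. Blvra lies on the chromosome of Rxra, 99.3 Mb away, and no other member shares a chromosome with Rxra, Rxrb or Lyz2.

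Blvrb (ENSMUSG00000040466, chromosome 7, 27447978 to 27466144, plus strand) encodes a flavin reductase that is the main fetal biliverdin reductase. Its level was 364, 337 and 392 CPM in knockout replicates 1, 2 and 3, against 328, 392 and 308 CPM in WT replicates 1, 2 and 3. The groups overlapped (log2 fold change 0.09, SE 0.099, 95% interval -0.13 to 0.30, edgeR adjusted p = 0.577). The difference between the Blvra and Blvrb fold changes was not tested. Of the other tested genes of heme breakdown, Hmox2 and Por, neither passed. Por, which encodes the reductase that feeds electrons to heme oxygenase, averaged 537 ± 39.6 CPM in the knockout and 633 ± 49.8 CPM in WT (-0.24, edgeR adjusted p = 0.0778), and passed with DESeq2 (adjusted p = 0.0477).

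**Figure D3:**
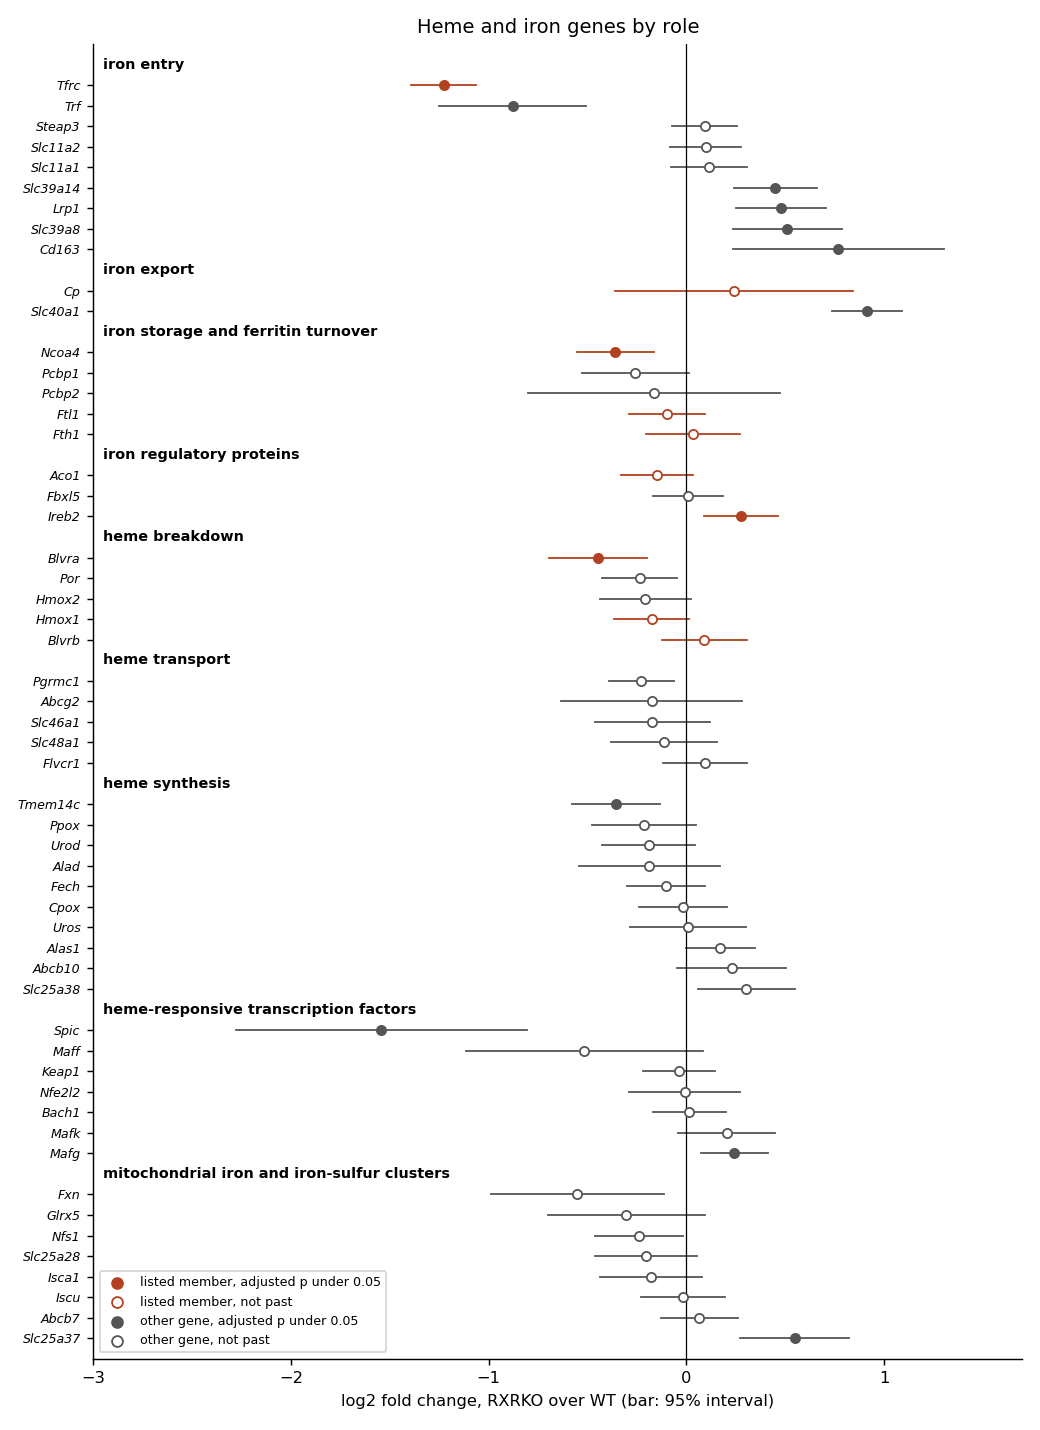
Log2 fold change of knockout (RXRKO) over WT for 54 tested genes of the heme and iron lists (horizontal axis, with 95% intervals as bars), grouped by role; the 10 members are in orange-red and other genes in grey, and filled points have an adjusted p under 0.05. Among filled points Spic (-1.54) and Tfrc (-1.23) lie farthest to the left and Slc40a1 (0.91) farthest to the right.

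Beyond the members, 45 other heme and iron genes were tested, and 7 were higher, 4 were lower and 34 did not pass. Without WT replicate 1 the number past the threshold was 6, against 11 with all libraries. The 11 are 24.4% of the 45, beside 19.4% of all tested genes, and their median log2 fold change was -0.04. Heme synthesis was near this background: of 11 genes, 0 were higher, 2 were lower and 9 did not pass. Tmem14c, which helps porphyrins into mitochondria, averaged 90.2 ± 12 CPM in the knockout and 116 ± 6.61 CPM in WT (log2 fold change -0.36, SE 0.102, edgeR adjusted p = 0.0279). Leaving out knockout replicate 1 or 3, or WT replicate 1 or 3, ended this call.

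None of the 5 tested heme transport genes passed. The most abundant was Slc48a1, which moves heme out of phagosomes, at 412 ± 68.3 CPM in the knockout and 446 ± 57.7 CPM in WT (log2 fold change -0.11, edgeR adjusted p = 0.575; 0.02 without knockout replicate 3). Of 8 genes of mitochondrial iron and iron-sulfur clusters, 1 was higher, 0 were lower and 7 did not pass. The one was Slc25a37, which encodes the mitochondrial iron importer mitoferrin 1. It had 65, 71.7 and 66.7 CPM in knockout replicates 1, 2 and 3, against 45.9, 36.5 and 55.6 CPM in WT replicates 1, 2 and 3 (0.55, SE 0.127, edgeR adjusted p = 0.00935). Its call was lost without WT replicate 1.

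Of 7 genes listed under heme-responsive transcription factors, 1 was higher, 1 was lower and 5 did not pass. The list holds Bach1, Spic, Nfe2l2, Mafk, Mafg, Maff and Keap1, and Keap1 does not encode a transcription factor. The shares over all tested genes were 9.77% higher and 9.61% lower. Spic, which heme induces and which marks the red pulp macrophages that recycle iron in the spleen, was rare. It had 27, 20 and 20 reads in knockout replicates 1, 2 and 3, against 21, 33 and 53 reads in WT replicates 1, 2 and 3, in libraries of smaller total. Scaled for depth these were 1.15 ± 0.392 CPM in the knockout and 3.32 ± 1.07 CPM in WT (log2 fold change -1.54, SE 0.339, edgeR adjusted p = 0.00669), and the call was lost after thinning all libraries to the smallest total (adjusted p = 0.0526). Mafg, the gene of a small Maf protein that pairs with both NRF2 and BACH1, averaged 171 ± 7.49 CPM in the knockout and 144 ± 6.39 CPM in WT (0.24, SE 0.078, edgeR adjusted p = 0.0471). That call was lost whichever library was left out.

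Targets of NRF2, which also drives Hmox1 and the ferritin genes, gave 2 of 9 higher, 0 lower and 7 that did not pass. Over all tested genes 9.77% were higher and 9.61% lower. Slc7a11, the cystine transporter gene, averaged 24.9 ± 2.57 CPM in the knockout and 18.7 ± 2.4 CPM in WT (log2 fold change 0.41, edgeR adjusted p = 0.0372). Gclm, a subunit of the first enzyme of glutathione synthesis, averaged 309 ± 5.84 CPM in the knockout and 262 ± 13.3 CPM in WT (0.24, edgeR adjusted p = 0.0434). Both calls were lost in most fits that left 1 library out, and passed in 2 and 1 of 6.

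Ranks, read ratios and the most abundant gene of a list, given elsewhere, rest on reads with no scaling for length. Here levels of different members were compared per kilobase of annotated exons. On this scale, CPM per kb, the order in the knockout was Ftl1, Fth1, Hmox1, Blvrb, Blvra, Aco1, Tfrc, Ireb2, Ncoa4 and Cp. In WT it was Ftl1, Fth1, Hmox1, Blvrb, Blvra, Tfrc, Aco1, Ncoa4, Ireb2 and Cp. Thus Tfrc stood at 17.1 ± 0.541 CPM per kb in the knockout, below Aco1 at 19.4 ± 0.789, and at 40.2 ± 1.23 CPM per kb in WT, above Aco1 at 21.5 ± 1.43. On this scale the values of these 2 genes did not overlap in either genotype. Ireb2 and Ncoa4 also changed places, with 9.65 ± 0.615 and 7.14 ± 0.56 CPM per kb in the knockout and 7.96 ± 0.375 and 9.16 ± 0.452 CPM per kb in WT. Neighbours in these orders, with exon unions as lengths, did not overlap in either genotype. The order depends on the length used. The union of all annotated exons of Fth1 spans 3469 bases, and its first-numbered coding transcript spans 929. With the lengths of these transcripts, a choice made after seeing the data, Fth1 stood at 21100 ± 2010 CPM per kb in the knockout and 20600 ± 3050 CPM per kb in WT, above Ftl1 at 9330 ± 642 in the knockout and 9980 ± 862 in WT. With exon unions Fth1 lay below Ftl1, at 5650 ± 538 against 6740 ± 464 CPM per kb in the knockout and 5530 ± 818 against 7210 ± 623 CPM per kb in WT. With transcript lengths the exchange of Ireb2 and Ncoa4 was gone: Ncoa4 lay above Ireb2 in both genotypes, at 20 against 15.9 CPM per kb in the knockout and 25.6 against 13.1 CPM per kb in WT. Knockout values of Tfrc (20.9 to 22.1 CPM per kb) then overlapped those of Aco1 (21.8 to 23.6), while in WT Tfrc (49.1 to 52.2) still lay above Aco1 (23.8 to 27.1). Blvrb then stood above Hmox1 in the knockout, at 355 against 283 CPM per kb, and in WT their values overlapped (300 to 382 and 299 to 348).

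Among 9541 protein-coding genes with an average log2 CPM of at least 2, the profile most like that of Tfrc, the member with the smallest adjusted p, was that of Plin2, a lipid droplet coat gene. Likeness was the root mean square difference between centred log2 CPM values over the 6 libraries, 0.0445 for Plin2. Cd5l, which encodes a protein secreted by macrophages, followed at 0.0455, and Itgav, the integrin alpha-v gene, at 0.0704. The 6 libraries hold 2 genotypes, so these distances mostly reflect a genotype difference of similar size.

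**Figure D4:**
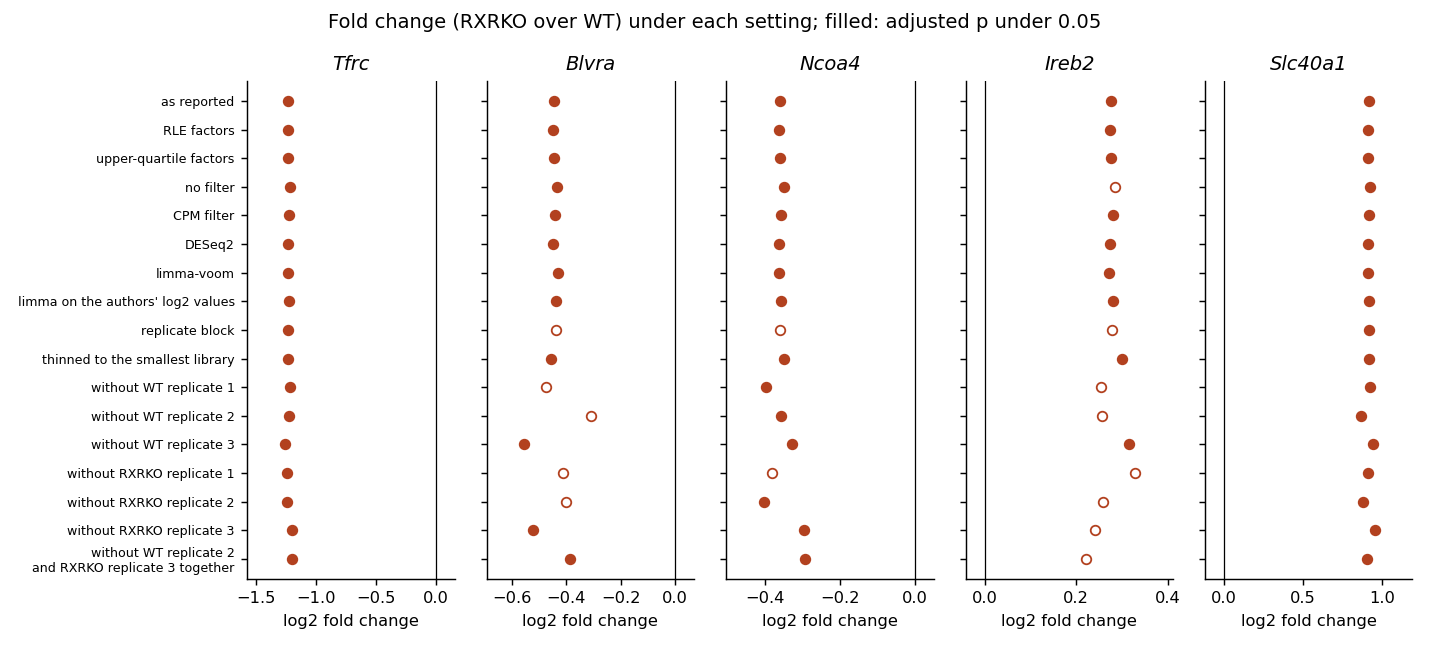
Log2 fold change of knockout (RXRKO) over WT for Tfrc, Blvra, Ncoa4, Ireb2 and Slc40a1 (horizontal axes, each with its own scale) as reported and under 16 other settings (rows), with filled points where the adjusted p was under 0.05. Tfrc and Slc40a1 are filled in every row, while Ireb2 is open in 8 rows and Blvra in 5.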

How the data were processed

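Raw counts for each Ensembl gene were deposited in 1 table and log2 values in a second table, where the authors' log2 values equal the log2 of each count times 1 constant per library. Reads were single-end; libraries were made with a NEBNext Ultra II kit from 100 ng of polyA RNA, per the labels' protocols. TopHat2 2.0.7, DESeq and mm10 (GRCm38) are named in the submitters' processing notes; the sources used here do not give the counting program or its annotation.

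Tests on the counts used edgeR 4.0.16 under R 4.3.3, with the robust quasi-likelihood F test, TMM factors and filterByExpr (minimum count 10, total 15), which kept 12011 genes; the model held genotype alone. Alternatives used DESeq2 1.42.0 and limma 3.58.1, the latter also on log2(linear value + 1) from the authors' log2 table. The edgeR step was tested on simulated data. Symbols came from GENCODE M21 (45106 of 45193 genes); Trf was matched through its RefSeq synonym. The members and lists were chosen with earlier results of these data known. Named genes were the members, up to 3 higher and 3 lower of each heme or iron list by adjusted p (2 and 2 for NRF2 targets), the most abundant where none passed and in each marker list, and the 3 genes most like Tfrc. Intervals cover 95%. The values of 1 gene of the heme synthesis list are not reported here; it is included in the counts.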

Additional observations from a re-analysis of the deposited data

How the results depend on the processing

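Of the results for single genes, Tfrc and Slc40a1 kept their direction and passed the threshold in each of 16 alternatives, with log2 fold changes from -1.26 to -1.20 and from 0.87 to 0.95 across the fits that left out 1 library. Replicate numbers carry no stated pairing or batch. Deviations of same-numbered libraries from their group means correlated at 0.0528, -0.275 and -0.259. With 3 libraries a group these values cannot settle whether libraries were paired. With the replicate number as a block, 1375 of all tested genes passed against 2327 without it, 1 member against 4 and 7 other heme and iron genes against 11. Leaving out 1 library gave between 1286 and 2607 genes, between 1 and 4 members and between 6 and 10 other heme and iron genes. The lowest count of all genes came without WT replicate 1, and without knockout replicate 1 it was 1383. The other alternatives kept these 3 counts within 1.5 times. Signs turned in Fth1, Fbxl5 and Slc48a1, which never passed, with ranges over the fits without 1 library from -0.0796 to 0.135, from -0.0196 to 0.033 and from -0.215 to 0.0197. Fth1 was at -0.0443 without knockout replicate 3 and Fbxl5 at -0.00295 without WT replicate 3. Col1a1 went from -1.23 without knockout replicate 3, where it passed, to 0.0367 without knockout replicate 2. Without knockout replicate 3 and WT replicate 2 together, Fbxl5 was at -0.026 and Cp at -0.0547. The fit without that pair was chosen after seeing the data. The cause of each was not tested. Cp, Spic and Epor rest on few reads, which limits their precision.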

Other observations

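Epor, which encodes the erythropoietin receptor, was the only one of 11 erythroid markers with 10 or more reads in any library. It had 3, 4 and 6 reads in knockout replicates 1, 2 and 3, against 16, 11 and 36 reads in WT replicates 1, 2 and 3, from larger knockout libraries. The scaled level was 0.22 ± 0.0923 CPM in the knockout and 1.81 ± 0.477 CPM in WT (log2 fold change -3.08, SE 0.445, edgeR adjusted p = 3.99e-04). The difference passed the threshold with each library left out in turn (from -3.44 to -2.81).

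Of the 9 neutrophil markers 0 were higher, 3 were lower and 6 did not pass, where 9.61% of all tested genes were lower. The log2 fold changes of the 9 markers ran from -1.10 to 0.82. The 3 lower ones were Elane, Mpo and Ngp, of which Elane and Mpo were chosen after their values were seen. Elane, neutrophil elastase, averaged 13.9 ± 1.9 CPM in the knockout and 29.8 ± 5.33 CPM in WT (log2 fold change -1.10, edgeR adjusted p = 2.18e-04), and Mpo, myeloperoxidase, which itself holds heme, averaged 29.5 ± 1.81 CPM in the knockout and 54.3 ± 2.9 CPM in WT (-0.88, edgeR adjusted p = 3.77e-05). Among those that did not pass, Retnlg was at 0.82, Ltf at 0.18 and Ly6g at 0.18. The summed level of all 9 was between 983 and 1090 CPM of all reads in the knockout and between 1100 and 1220 CPM in WT. The most abundant by average level was Ngp (313 ± 24.5 CPM in the knockout and 377 ± 19.3 CPM in WT, -0.27, edgeR adjusted p = 0.04), whose call was lost in most fits that left out 1 library. Of the macrophage markers Lgals3 did not pass (-0.27, edgeR adjusted p = 0.08), and of the stromal markers Col1a1 did not (-0.36, edgeR adjusted p = 0.666), except without knockout replicate 3 (-1.23, edgeR adjusted p = 0.0139). Cd3e, a T cell marker, had at most 6 reads in a library.

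Some libraries resembled one of the other genotype in their deviation from their own group. Knockout replicate 3 and WT replicate 2 were one such pair. Their deviations over all tested genes correlated at 0.307, and those of knockout replicate 2 and WT replicate 3 at 0.25. The members Fth1, Ftl1, Blvra and Blvrb were each highest, within their genotype, in knockout replicate 3 and in WT replicate 2, and lowest in knockout replicate 2 and in WT replicate 3. Hmox1 and Aco1 went the other way, lowest in knockout replicate 3 and in WT replicate 2. Of the 55 tested genes of the heme and iron lists, 12 were highest in both of these libraries and 17 were lowest in both. The same was not counted over all tested genes, whose deviations correlated too. These counts therefore do not set the heme and iron genes apart. Nothing in the labels links the libraries of either pair. Without knockout replicate 3 and WT replicate 2 Tfrc, Ncoa4 and Blvra still passed the threshold and Ireb2 did not.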
